A study of Mus musculus with 6 samples.

Results

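The milk fat globule and mucin genes described here are Btn1a1, Xdh, Plin2, Cidea, Mfge8, Muc1, Muc4 and Muc15, 8 of the 18193 genes that had a probe set with a single gene symbol. Their probe sets were found by symbol in the platform annotation, which gave 12 probe sets. All RNA was total RNA of mammary glands from female bitransgenic mice, which carried LH, a name the labels do not spell out, together with MMTV-neu. In MMTV-neu mice the neu oncogene, a form of Erbb2, is under a viral promoter active in mammary epithelium. Mice of 10 weeks of age were compared with mice of 5 weeks, both carrying both transgenes, so no group without them enters the comparison. There were 3 pools of 3 animals, and so 9 animals, at each age, with 1 array per pool. The sources used here do not give the reproductive state of the mice.

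Milk fat leaves the secretory cell by an unusual route. Cytosolic lipid droplets, coated by perilipin 2 (Plin2) and enlarged with the help of Cidea, move to the apical membrane, which wraps around them and is pinched off as the membrane of the milk fat globule. Butyrophilin (Btn1a1) spans that membrane and binds xanthine oxidoreductase (Xdh), a purine-degrading enzyme that also has a structural role in globule release. The globule membrane also carries lactadherin (Mfge8), a secreted protein that binds phosphatidylserine, and transmembrane mucins such as Muc1, Muc4 and Muc15, heavily O-glycosylated proteins that cover the apical surface of epithelia.

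The deposited values are linear signal intensities, with array medians of 156.4 to 172.5 and array maxima of 15339.6 to 22312.4. Markers of luminal epithelium were present in every pool, with signals of 437.8 to 12167.9 for the 9 genes of that list. Y-linked genes, which female mice lack, had signals of 9.5 to 105.8, which gives a range for probe sets without a target. The number of arrays, 3 at each age, limits the precision, and animal pools and array handling both enter the spread.

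Of the 8 genes, 7 were higher at 10 weeks and none was lower. The adjusted p was below 0.05 (limma across 13002 genes, Benjamini-Hochberg) for Muc4, Xdh, Muc1, Btn1a1, Mfge8, Muc15 and Plin2, and above it for Cidea. Over all genes tested, 16.1% were called higher and 19.7% lower, 35.8% in all. Counts of genes called in the lists and marker lists below are to be read beside these shares. The 3 signals at 10 weeks lay above the 3 at 5 weeks for the same 7 genes, which was so for 24.0% of all genes tested, while 26.3% lay wholly below. The median log2 difference (10 weeks minus 5 weeks) was 1.36 over the 8 genes and -0.004 over all genes tested. All 8 genes and 11 of their 12 probe sets passed the filter on low signals, and every tested probe set except that of Cidea was called higher. Over all 27022 probe sets tested, 13.4% were called higher, 15.3% lower and 28.8% in either direction.

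**Figure D1:**
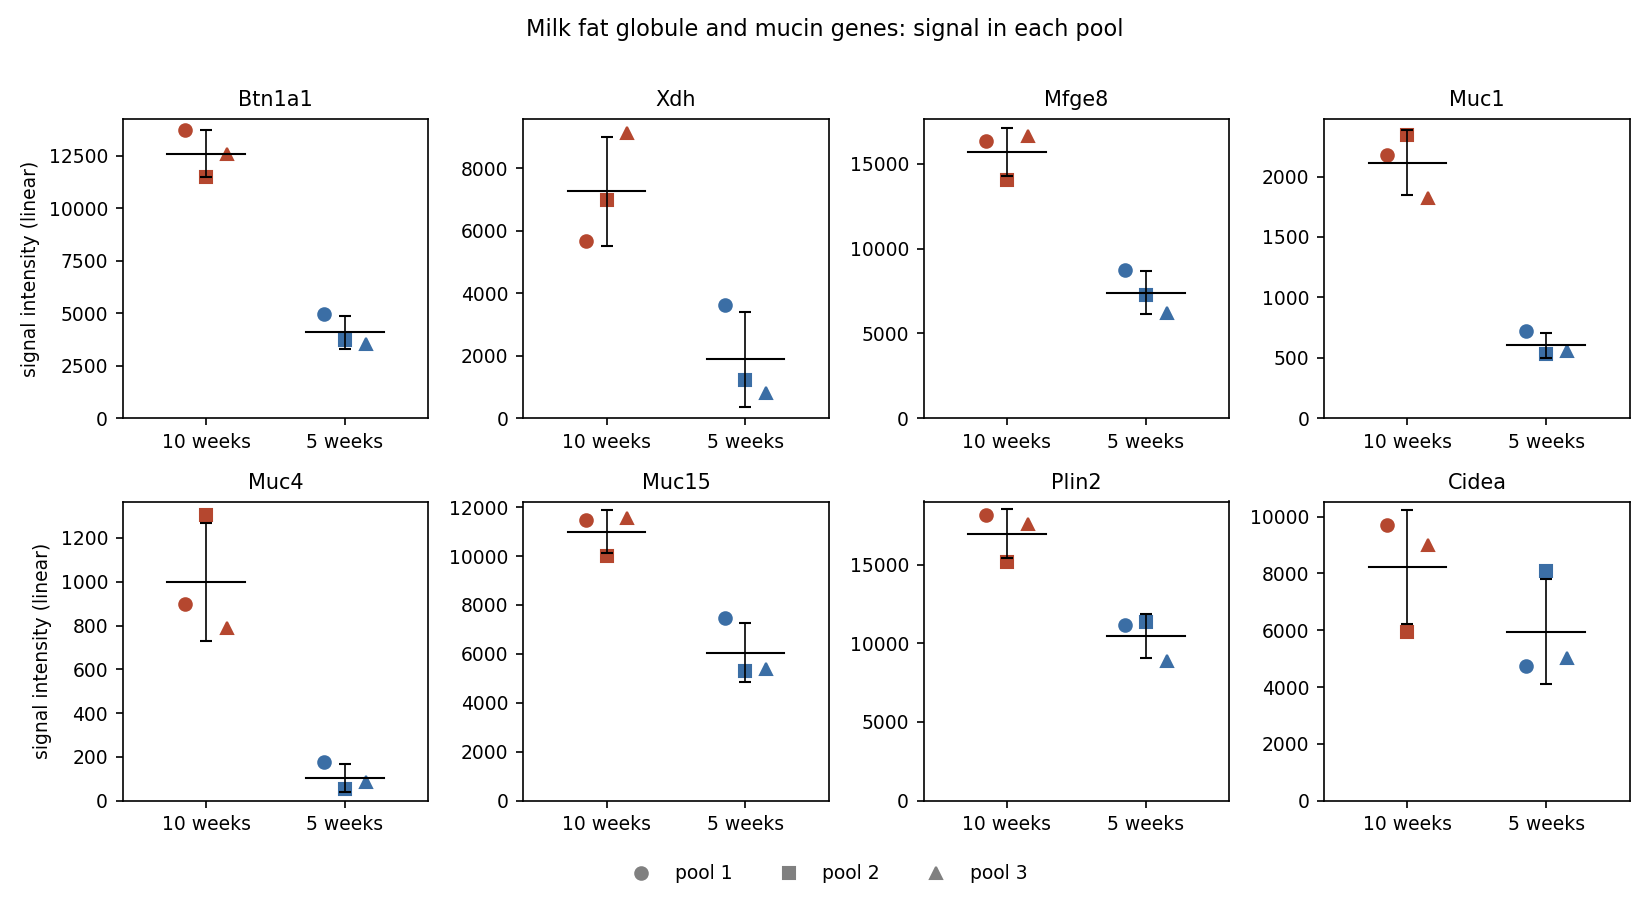
Linear signal intensity of the brightest probe set of each gene in each pool, with 10 weeks left of 5 weeks. Lines are means, bars are SD over 3 pools and symbols mark the pool number. The ages are separate in 7 panels, and in that of Cidea pool 2 of 10 weeks (5928.7) lies below pool 2 of 5 weeks (8071.6).

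The glands also held more signal of epithelial genes at 10 weeks. All 9 genes of the luminal epithelial list rose, and their summed signal was 59709.2 to 68869.2 in the 10-week pools, against 32215.5 to 40860.9 in the 5-week pools. In whole-gland RNA, fewer cells of a type and less RNA per cell cannot be told apart. To set the differences beside this, the arrays were also centred on the mean log2 signal of 7 epithelial genes (Krt8, Krt18, Epcam, Cdh1, Cldn3, Cldn7 and Elf3), which moved the median log2 difference of all genes to -0.73. Krt19 (0.56) and Elf5 (1.20), of the same list, were left out of the centring. The log2 differences of the 9 genes ran from 0.32 for Krt18 to 1.20 for Elf5, so relative values depend on the genes chosen. No other choice was tested. On that scale 345 genes were higher and 9207 lower, so that 3.61% of the calls were increases, against 45.1% on the signals as deposited. With 13002 genes tested on the signals as deposited, most genes were thus called lower relative to the epithelial genes. Counts of list genes lower on that scale are to be read beside this. Relative to the epithelial genes, Muc4 was still higher by 2.25 ± 0.29 (SE), Xdh by 1.47 ± 0.37, Muc1 by 1.04 ± 0.19 and Btn1a1 by 0.91 ± 0.18 on the log2 scale (limma adjusted p = 1.31e-05, 0.00281, 0.000228 and 0.000492). Mfge8 (0.37 ± 0.20, adjusted p = 0.0973) and Muc15 (0.15 ± 0.18, adjusted p = 0.453) were not called on that scale, and the signs of Plin2 (-0.02 ± 0.20, adjusted p = 0.912) and Cidea (-0.25 ± 0.25, adjusted p = 0.369) turned. A turned sign is not by itself a reversal. No member or list gene called higher on the signals as deposited was called lower relative to the epithelial genes. The part of epithelial content in these differences was not tested in any other way.

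**Figure D2:**
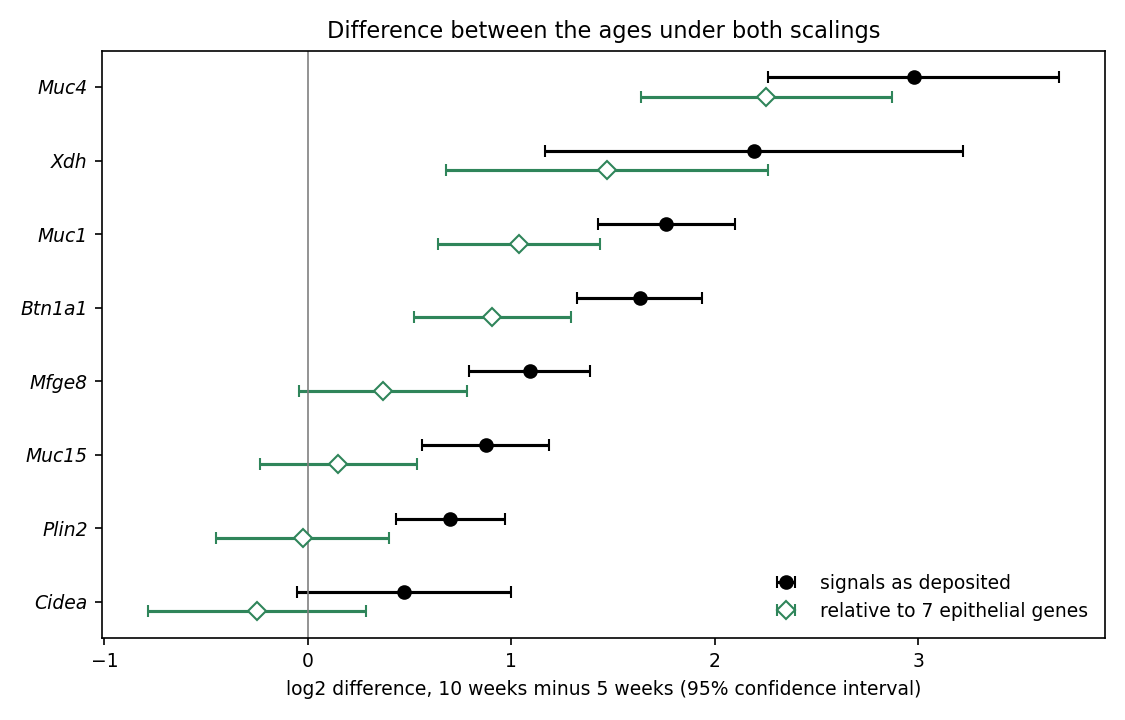
Log2 difference of the brightest probe set of each gene, 10 weeks minus 5 weeks, with 95% confidence intervals from limma, for signals as deposited (filled circles) and relative to 7 epithelial genes (open diamonds). Muc4, Xdh, Muc1 and Btn1a1 lie to the right of 0 on both scales, while Mfge8 and Muc15 reach 0 on the second and Plin2 and Cidea change sign on it.

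Butyrophilin and xanthine oxidoreductase, which form the membrane complex of the globule, both rose. On its brightest probe set, Btn1a1 had signals of 13718.3, 11482.1 and 12571.1 in the 10-week pools, against 4958.9, 3729.9 and 3548.9 in the 5-week pools. Every 10-week pool was far above every 5-week pool, and within an age the pools lay close together. The means were 12590 ± 1118 in 10-week glands, against 4079 ± 767 in 5-week glands (SD, n = 3 each), and the log2 difference was 1.63 ± 0.13 (SE, limma adjusted p = 6.95e-05). A further probe set had 853.8, 1397.8 and 1690.9 at 10 weeks, against 220.1, 174.7 and 173.6 at 5 weeks. The last of its probe sets had 904.9, 759.7 and 1035.6 at 10 weeks, against 172.2, 111.3 and 110.2 at 5 weeks. These probe sets gave differences of 2.56 ± 0.23 and 2.52 ± 0.19 (SE), larger than that of the brightest, whose 10-week signals lay in the top 1% of the array. The mean over the probe sets was 2.24.

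Xdh had signals of 5668.5, 6978.2 and 9146.4 at 10 weeks, against 3621.1, 1220.7 and 804.7 at 5 weeks. The ages did not overlap, but the 5-week pools were uneven, with the highest 4.5 times the lowest. The means were 7264 ± 1757 in 10-week glands, against 1882 ± 1520 in 5-week glands (SD, n = 3 each). The log2 difference was 2.19 ± 0.45 (SE, limma adjusted p = 0.00574), and it was 2.81 without 5-week pool 1 and 1.74 without 5-week pool 3.

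Xanthine oxidoreductase needs a molybdenum cofactor, so the genes that make that cofactor, the related enzymes that use it and the neighbouring steps of purine breakdown were read beside Xdh. Of 12 tested of 14, 5 rose and 3 fell, but relative to the epithelial genes none was higher, 6 were lower, and of those that rose the signs of Mocs1, Mocs2 and Gphn turned. The list's median log2 difference was 0.208. The increases were those of the cofactor genes Mocos (0.87), which adds the sulphur that Xdh requires, Mocs1 (0.68), Gphn (0.65), which inserts the metal, and Mocs2 (0.48), and of Ada (0.97), the adenosine deaminase gene. Mocs3, the remaining cofactor gene, did not pass the test (0.21, adjusted p = 0.33). The decreases were those of Aox1, an aldehyde oxidase related to Xdh, of Pnp, the purine nucleoside phosphorylase gene, by 0.62, and of Suox, the sulphite oxidase gene, by 0.42. The calls of Mocs1 and Suox were marginal. The adjusted p was 0.0474 over genes and 0.0558 over probe sets for Mocs1, and 0.0457 and 0.0538 for Suox. On the brightest probe set of Mocs1 the ages overlapped (571.8 in 10-week pool 2, 636.2 in 5-week pool 2). Another of its probe sets gave 0.18 and was not called. When 1 pool was left out, the list held 4 or 5 increases and 2 or 3 decreases. Aox1 had a mean signal of 530.5 ± 81.8 in 10-week glands, against 1184 ± 158 in 5-week glands (SD, n = 3 each), and fell by 1.11 ± 0.15 (SE, adjusted p = 0.000676). The brightest gene that did not pass was Hprt, of purine salvage, with a log2 difference of 0.11 (adjusted p = 0.412).

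Only Btnl9 and Vtcn1 of the 5 other butyrophilin and related genes with a probe set passed the filter. Btnl9, a butyrophilin-like gene, rose by 0.52 and Vtcn1, an immunoglobulin-domain ligand of immune cells, by 0.58 (adjusted p = 0.022 and 0.0456), but both signs turned relative to the epithelial genes (-0.20 and -0.14). With 1 pool left out at a time, between 0 and 2 of these genes were called, and the adjusted p of Btnl9 reached 0.0766. The log2 ratio of Btn1a1 to Btnl9 within an array was higher at 10 weeks by 1.11 ± 0.28 (SE), with no overlap between ages.

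Plin2, the coat protein of the droplets, rose least of the 7 genes called. Its signals were 18140.4, 15181.9 and 17548.0 at 10 weeks, against 11180.2, 11367.2 and 8862.0 at 5 weeks. All 10-week pools lay above all 5-week pools, and on both sides the probe set was in the top 1% of the array. The means were 16957 ± 1565 in 10-week glands, against 10470 ± 1396 in 5-week glands (SD, n = 3 each), and the log2 difference was 0.70 ± 0.12 (SE, limma adjusted p = 0.00211). Relative to the epithelial genes it was near 0 and not called (-0.02 ± 0.20, SE). Signals this near the array maximum can be compressed, and whether that made the difference smaller was not tested. The same limit holds for Mfge8, Fabp3 and Glycam1, with 10-week signals up to 16628.6, 19748.6 and 22075.3, and for the order of the members by difference.

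Cidea, which drives the fusion and growth of droplets and is needed in mice for lipid-rich milk, did not pass the test. Its signals were 9710.8, 5928.7 and 9001.7 at 10 weeks, against 4753.9, 8071.6 and 5027.6 at 5 weeks. The pools overlapped, because pool 2 was the lowest of the 10-week pools and the highest of the 5-week pools. The means were 8214 ± 2010 in 10-week glands, against 5951 ± 1842 in 5-week glands (SD, n = 3 each). The log2 difference was 0.47 ± 0.23 (SE, adjusted p = 0.145), with a 95% confidence interval of -0.05 to 0.998. Leaving out 10-week pool 2 (0.69, adjusted p = 0.0452) or 5-week pool 2 (0.71, adjusted p = 0.0255) brought it past the threshold, and its sign turned relative to the epithelial genes (-0.25).

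Cidea, which was not called, is also a gene of brown fat. Most genes of the brown fat list were called lower at 10 weeks. All 7 genes of the brown fat list were measured, 6 of them fell and none rose. Their summed signal was 4539.8 to 15733.9 in the 10-week pools, against 17747.1 to 28496.0 in the 5-week pools, and no marker was at 0. Ucp1, the uncoupling protein that defines brown fat, had signals of 1771.6, 4355.8 and 7403.6 at 10 weeks, against 8049.2, 13558.2 and 8626.8 at 5 weeks. At 5 weeks pool 2 was the highest for both Ucp1 and Cidea, whereas at 10 weeks pool 1 was the lowest for Ucp1 and the highest for Cidea. The part of brown fat in the Cidea signal was not tested. The adipocyte list gave summed signals of 50038.8 to 62044.9 at 10 weeks, against 62128.9 to 76107.7 at 5 weeks, with 3 of 7 genes lower, none higher and none at 0. Its brightest genes, Fabp4 and Car3, had log2 differences of -0.04 and -0.03 and did not pass the test.

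**Figure D3:**
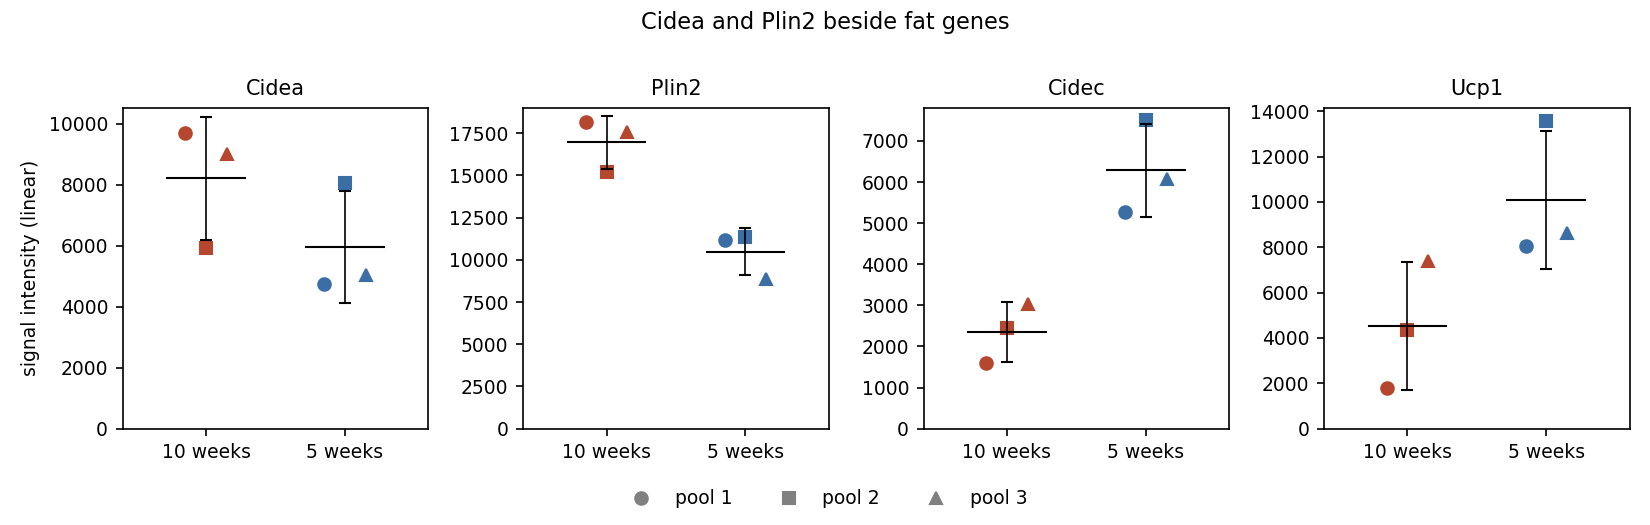
Linear signal intensity of Cidea, Plin2, the white fat droplet gene Cidec and the brown fat gene Ucp1 in each pool, with 10 weeks left of 5 weeks (lines are means, bars SD over 3 pools). Cidec and Ucp1 are lower in every 10-week pool than in any 5-week pool, and the pools of Cidea overlap. Plin2 is higher in every 10-week pool on the signals as deposited, but near 0 and not called relative to the epithelial genes (-0.02 ± 0.20, SE).

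Other droplet and globule lipid genes moved in both directions. Of 14 tested of 15, 4 rose and 6 fell, with a median log2 difference of -0.123. Relative to the epithelial genes 2 were higher and 9 lower, and the sign of Rab18, among the increases, turned. The largest increase was that of Fabp3, a fatty acid binding protein found in milk fat globules. Fabp3 had signals of 18725 ± 1527 in 10-week glands, against 5172 ± 2092 in 5-week glands (SD, n = 3 each), and the log2 difference was 1.93 ± 0.25 (SE, adjusted p = 0.000566). Abhd5, the activator of the lipase encoded by Pnpla2, rose by 1.27 on its brightest probe set and by 0.74 with its probe sets averaged. G0s2, an inhibitor of the same lipase, rose by 0.88. Rab18, a droplet GTPase, rose by 0.69, while Pnpla2 itself fell by 0.63.

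The 6 genes of this list that fell were Plin5, Cidec, Plin4, Bscl2, Pnpla2 and Cideb. Plin5, a perilipin of oxidative tissues, had a mean signal of 334.4 ± 123 in 10-week glands, against 1396 ± 446 in 5-week glands (SD, n = 3 each), and fell by 1.96 ± 0.29 (SE). Cidec, the relative of Cidea that builds the large droplet of white fat, had a mean of 2352 ± 720 in 10-week glands, against 6287 ± 1136 in 5-week glands (SD, n = 3 each), and fell by 1.44 ± 0.22 (SE). Plin4, a perilipin of adipocytes, fell by 1.24 ± 0.12 (SE). Bscl2, which encodes the droplet assembly protein seipin, fell by 0.66 and Cideb by 0.57. Cd36, a fatty acid transporter, was the brightest gene that did not pass (0.25, adjusted p = 0.0725).

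Members were compared with chosen relatives, and Cidea also with the brown fat gene Ucp1, through the log2 ratio within each array. In such a ratio the scaling of the array cancels. Plin3, another perilipin gene, was not used in a ratio and had a log2 difference of 0.11 (limma adjusted p = 0.473). Plin4, used for Plin2, was among the genes that fell. The ratio of Plin2 to Plin4 was higher at 10 weeks by 1.94 ± 0.19 (SE), that of Cidea to Cidec by 1.91 ± 0.41, that of Cidea to Ucp1 by 1.81 ± 0.69 and that of Xdh to Aox1 by 3.31 ± 0.75. The log2 ratio of Cidea to Ucp1 was 2.43, 0.44 and 0.28 in the 10-week pools, against -0.76, -0.75 and -0.78 in the 5-week pools, and without 10-week pool 1 its difference was 1.12. None of these ratios overlapped between the ages. In an exact two-sided permutation test of 3 pools against 3, each gave p = 0.1, the smallest p this design allows, and 0.12 after Benjamini-Hochberg adjustment over the 6 ratios examined. Some of these pairs were chosen after their values had been seen.

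**Figure D4:**
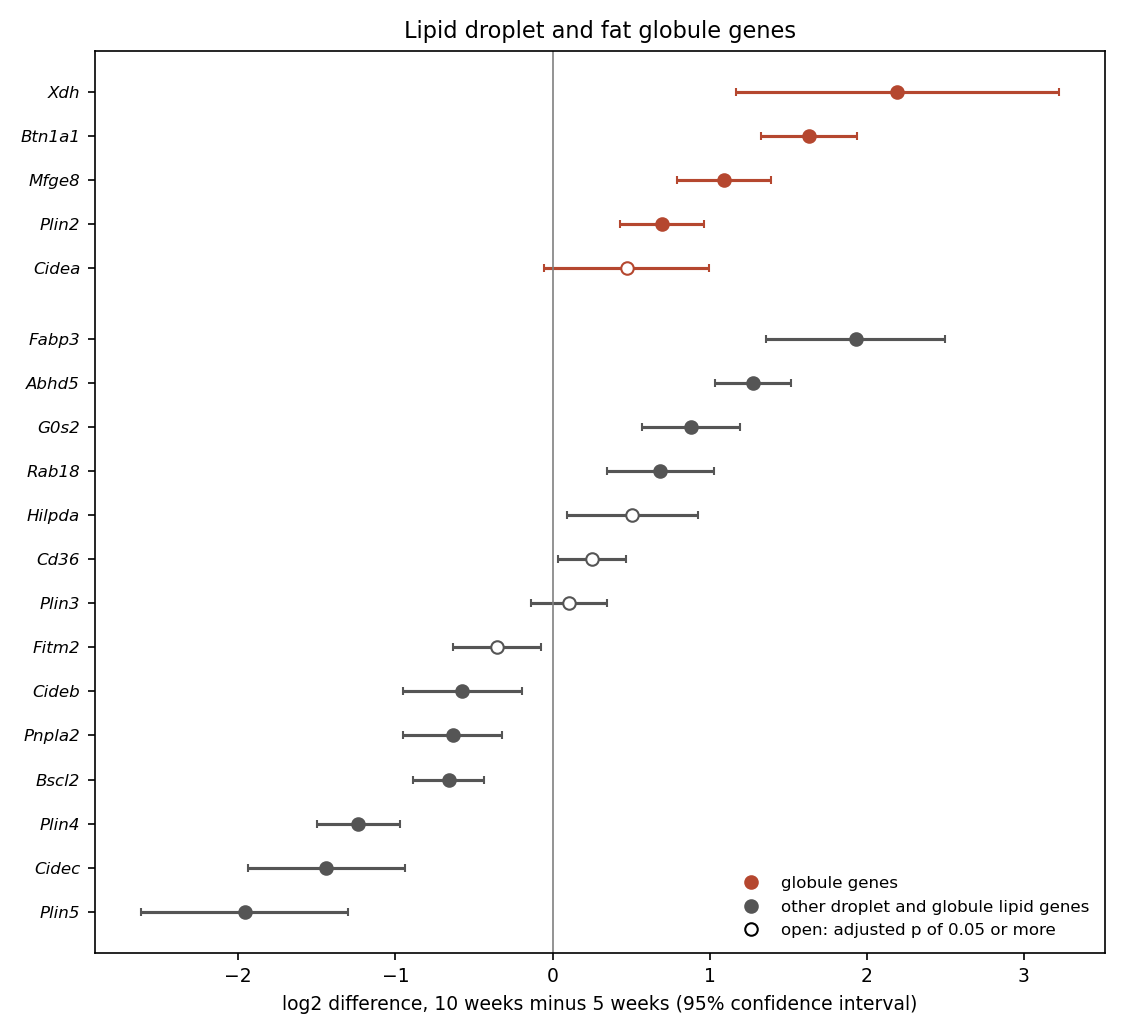
Log2 difference of globule genes and of other droplet and globule lipid genes, 10 weeks minus 5 weeks, with 95% confidence intervals from limma. Filled points passed the test. On the signals as deposited the differences run from 2.19 for Xdh to -1.96 for Plin5, and relative to the epithelial genes the signs of Plin2, Cidea, Rab18, Hilpda, Cd36 and Plin3 turn. Of these only Cd36 and Plin3 are called lower on that scale, and the others are not called.

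Mfge8, which links phosphatidylserine on dying cells and membrane vesicles to integrins on phagocytes, rose. Its signals were 16341.5, 14052.4 and 16628.6 at 10 weeks, against 8740.0, 7258.2 and 6190.8 at 5 weeks, with no overlap. The means were 15674 ± 1412 in 10-week glands, against 7396 ± 1280 in 5-week glands (SD, n = 3 each), and the log2 difference was 1.09 ± 0.13 (SE, limma adjusted p = 0.000381). Macrophages also use Mfge8, and the macrophage list had summed signals of 19575.7 to 21474.6 at 10 weeks, against 21303.2 to 21483.7 at 5 weeks, with 3 of 7 genes higher, 3 lower and none at 0.

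The promoter of Mfge8, shown because it is the most GC-rich of the 4 promoters available for these genes, covers the 250 bases before the transcription start on the minus strand, at chr7:79149061-79149310 (RefSeq, GRCm38.p6), with capitals marking GGGCGG on either strand, the GC box bound by Sp1 family factors.
Mfge8: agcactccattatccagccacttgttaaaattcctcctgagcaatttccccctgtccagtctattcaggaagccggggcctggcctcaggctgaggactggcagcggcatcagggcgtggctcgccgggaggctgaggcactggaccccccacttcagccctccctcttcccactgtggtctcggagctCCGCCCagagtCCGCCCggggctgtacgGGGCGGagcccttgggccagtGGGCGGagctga
It holds 4 such matches, beginning 61, 50, 33 and 12 bases before the start, and has a GC content of 65.2%.

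Receptors and partners of Mfge8 in the clearance of dying cells moved in both directions. Of 12 tested of 14, 2 rose and 6 fell, with a median log2 difference of -0.4, and relative to the epithelial genes 1 was higher, 9 were lower and the sign of Mertk turned. Its integrin receptor genes Itgav and Itgb5 had log2 differences of 0.07 and -0.07 on their brightest probe sets (adjusted p = 0.655 and 0.623). Of the other tested probe sets of Itgb5, 2 were called lower (-0.35 and -0.58, adjusted p = 0.0373 and 0.0219 over probe sets) and 1 was not called (0.23). Itgb3, the third subunit gene of these receptors, fell by 1.74 ± 0.25 (SE), with 10-week signals of 67.8 to 118.3 that reached down into the range of the Y-linked genes. The closest relative of Mfge8, Edil3, had signals of 9.5 to 65.3, within the range of the Y-linked genes, and was not tested. Gas6, a bridging ligand of the TAM receptors, had a mean signal of 3729 ± 754 in 10-week glands, against 10179 ± 1535 in 5-week glands (SD, n = 3 each), and fell by 1.45 ± 0.16 (SE), or by 0.93 with its probe sets averaged. The endocytic receptor gene Lrp1 fell by 1.72, Timd4 by 1.37, Axl by 0.90 and Tgm2 by 0.73. Of the TAM receptor genes, Tyro3 rose by 1.33 ± 0.24 (SE) and Mertk by 0.59. The 5 tested probe sets of Tgm2 were all called lower, and the value given is the smallest of them, with the largest a fall by 2.03. Another probe set of Axl was called higher, by 2.46 ± 0.16 (SE, adjusted p = 4.47e-05 over probe sets), the only such conflict among the 31 listed genes with several tested probe sets.

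The 3 mucin genes all rose. Muc1, the best known mucin of the breast epithelial surface, had signals of 2179.1, 2344.2 and 1818.9 at 10 weeks, against 722.1, 534.2 and 552.0 at 5 weeks. All 10-week pools lay far above all 5-week pools. The means were 2114 ± 269 in 10-week glands, against 602.8 ± 104 in 5-week glands (SD, n = 3 each), and the log2 difference was 1.76 ± 0.15 (SE, limma adjusted p = 7.65e-05).

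Muc4, a membrane mucin that binds the Erbb2 receptor in rat cells, had the largest difference of the 8 genes on the brightest probe sets. With the probe sets of a gene averaged it was 2.05, below Btn1a1 (2.24) and Xdh (2.19). Its brightest probe set had signals of 900.5, 1303.6 and 790.2 at 10 weeks, against 175.8, 53.1 and 86.6 at 5 weeks. At 5 weeks pools 2 and 3 lay within the range of the Y-linked genes, while all 10-week pools were well above it. The means were 998.1 ± 270 in 10-week glands, against 105.2 ± 63.4 in 5-week glands (SD, n = 3 each). The log2 difference was 2.98 ± 0.32 (SE, limma adjusted p = 0.000213), and it was 3.37 with an offset of 1 and 2.44 with an offset of 100 before the logarithm. Another probe set had 222.1, 221.6 and 195.0 at 10 weeks, against 100.1, 56.8 and 90.0 at 5 weeks, a log2 difference of 1.12 ± 0.20 (SE, adjusted p = 0.0035 over probe sets). The remaining probe set had signals of 2.3 to 43.7 over the 6 pools, lower at 10 weeks and inside the range of the Y-linked genes or under it, and did not pass the filter.

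Muc15, a heavily glycosylated membrane mucin first isolated from milk fat globules, had signals of 11465.5, 9983.6 and 11547.1 at 10 weeks, against 7449.8, 5298.3 and 5401.2 at 5 weeks. The ages did not overlap. The means were 10999 ± 880 in 10-week glands, against 6050 ± 1214 in 5-week glands (SD, n = 3 each). The log2 difference was 0.87 ± 0.14 (SE, limma adjusted p = 0.00149), and relative to the epithelial genes it was 0.15 and not called.

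The promoters of Muc1 and Muc4 are shown because these mucins rose beyond the epithelial genes. Both lie on the plus strand and cover the 250 bases before the start, at chr3:89228806-89229055 for Muc1 and chr16:32735636-32735885 for Muc4 (RefSeq, GRCm38.p6). Capitals mark TATAAA, the TATA box, and GGGCGG, each searched on both strands.
Muc1: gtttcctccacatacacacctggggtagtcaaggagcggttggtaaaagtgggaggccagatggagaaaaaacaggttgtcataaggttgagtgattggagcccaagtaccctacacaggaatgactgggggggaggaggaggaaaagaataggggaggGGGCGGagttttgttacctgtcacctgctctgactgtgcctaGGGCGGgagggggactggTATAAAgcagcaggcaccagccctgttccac
Muc4: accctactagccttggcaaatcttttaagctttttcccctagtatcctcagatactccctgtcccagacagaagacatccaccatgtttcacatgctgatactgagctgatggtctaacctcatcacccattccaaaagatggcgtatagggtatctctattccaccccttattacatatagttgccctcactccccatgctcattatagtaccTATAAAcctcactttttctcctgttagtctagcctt
The TATA match begins 31 bases before the start in Muc1 and 36 in Muc4, and Muc1 also holds GC boxes 91 and 49 bases before it. TATAAA occurs in 12.4% and GGGCGG in 32.7% of the 32851 promoter windows of this length. The STAT motif TTCNNNGAA, found in 7.02% of them, and TTGCNNAA, a C/EBP-like motif found in 9.56%, each searched on both strands, occur in none of the windows of Muc1, Muc4, Mfge8 and Plin2, and Plin2 holds no match to any of the 4 motifs. No matches of different motifs overlap in these windows. A match is a string of letters and was not tested as a binding site.

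Among 7 tested of 17 other mucins and mucin-like genes, 2 rose and 2 fell, with a median log2 difference of -0.254, and relative to the epithelial genes 1 was higher and 5 were lower. Muc20, a membrane mucin whose gene lies next to Muc4 in the RefSeq table of GRCm38.p6, had signals of 1361.8, 1248.0 and 1162.5 at 10 weeks, against 423.8, 314.4 and 559.4 at 5 weeks, and rose by 1.504 ± 0.19 (SE, adjusted p = 0.000452). The difference of the log2 ratio of Muc1 to Muc20 was 0.26 ± 0.26 (SE), and this ratio overlapped between the ages (exact two-sided permutation p = 0.6). Without 5-week pool 3 the difference was 0.01. Glycam1, a secreted mucin-like milk protein, had a mean signal of 20947 ± 1083 in 10-week glands, against 9836 ± 3177 in 5-week glands (SD, n = 3 each), and rose by 1.15 ± 0.22 (SE). Relative to the epithelial genes, Glycam1 had a log2 difference of 0.42 ± 0.25 (SE, limma adjusted p = 0.136) and was not called. Emcn and Podxl, sialomucins of the endothelium, fell by 0.87 and 0.76. Another probe set of Podxl gave -0.20 and was not called (limma adjusted p = 0.646 over probe sets). With the probe sets of a gene averaged, this list held 1 decrease in place of 2. In the endothelial list 5 of 6 genes fell and none rose, with summed signals of 3595.7 to 4153.3 at 10 weeks, against 6193.6 to 7267.4 at 5 weeks and no marker at 0. Cd164, the brightest that did not pass, had a log2 difference of -0.16. The gel-forming mucin genes Muc5ac and Muc5b did not pass the filter.

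Of 15 tested of 17 genes that build mucin O-glycans, 6 rose and 1 fell, with a median log2 difference of 0.282. Relative to the epithelial genes 2 were higher and 8 lower, and the signs of C1galt1c1 and Gcnt1 turned. St6galnac2, a sialyltransferase that acts on the initiating sugar, had signals of 2580.7, 966.7 and 1389.4 at 10 weeks, against 157.4, 125.5 and 124.6 at 5 weeks, and rose by 3.21 ± 0.30 (SE, adjusted p = 0.000124). Its other tested probe set gave 0.93, and the average was 2.07. The GalNAc transferases that start the chains rose for Galnt3 (1.44 ± 0.14, SE), Galnt12 (0.90) and Galnt7 (0.74). C1galt1c1, the chaperone of the core 1 enzyme, rose by 0.45 and the core 2 enzyme gene Gcnt1 by 0.61. St3gal1, which caps core 1 with sialic acid, had a mean signal of 423 ± 70.8 in 10-week glands, against 814.1 ± 35.9 in 5-week glands (SD, n = 3 each), and fell by 0.91 ± 0.15 (SE, adjusted p = 0.00161). Galnt2, the brightest that did not pass, gave -0.20 on its brightest probe set, while another of its probe sets, with nearly the same mean log2 signal (11.15 against 11.17), fell by 0.70. Leaving out any 1 of the 10-week pools made the second the brightest and gave -0.69 to -0.71 (adjusted p = 0.0025 to 0.0029), and averaging the probe sets gave -0.41 (adjusted p = 0.0169). The list then held 2 decreases in place of 1.

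**Figure D5:**
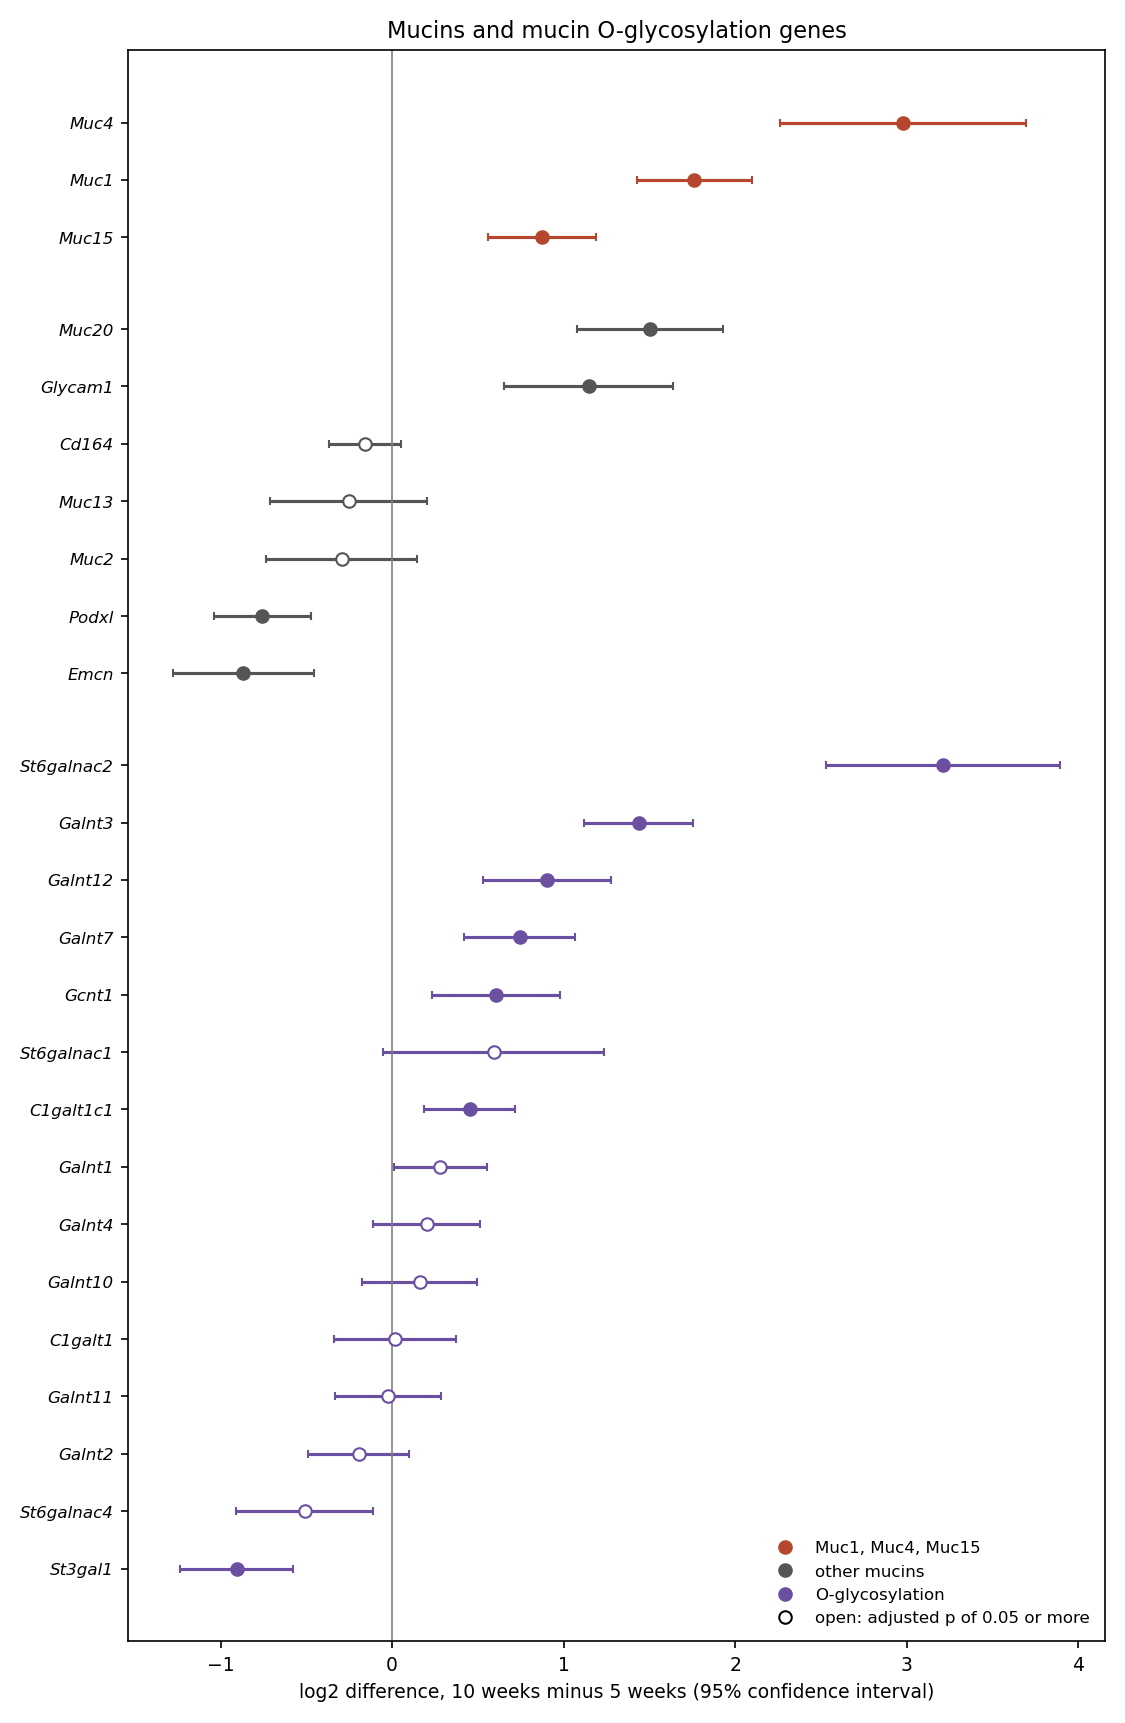
Log2 difference of Muc1, Muc4 and Muc15, of other mucins and of O-glycosylation genes, 10 weeks minus 5 weeks, with 95% confidence intervals from limma on the signals as deposited. Filled points passed the test. St6galnac2 (3.21) and Muc4 (2.98) lie farthest to the right and St3gal1 (-0.91) farthest to the left, and relative to the epithelial genes the signs of C1galt1c1, Gcnt1, St6galnac1, Galnt1, Galnt4, Galnt10 and C1galt1 turn. Of these Galnt1, Galnt4, Galnt10 and C1galt1 are called lower on that scale, and the others are not called.

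The pools of an age did not share one order across the 8 genes. At 5 weeks pool 1 was the highest for 6 of them (Btn1a1, Xdh, Mfge8, Muc1, Muc4 and Muc15), and pool 2 for Plin2 and Cidea. The mean log2 signal of the 7 epithelial genes was 11.63, 11.32 and 11.68 in the 5-week pools, highest in pool 3. The summed signal of the 9 luminal epithelial genes was 40860.9, 32215.5 and 39844.1 in these pools, highest in pool 1. Which 5-week pool had the highest epithelial level thus depended on the genes and the measure. At 10 weeks pool 2 was the lowest for 5 of the 8. The skeletal muscle list, a sign of tissue next to the gland, differed most among pools. Its summed signal was 4647.5, 31721.6 and 29593.4 at 10 weeks, against 63977.3, 37719.7 and 67059.9 at 5 weeks, with 3 of 6 genes lower, none higher and none at 0. Without 10-week pool 1, the pool with the least muscle signal, 7 of the 8 genes were called higher. The log2 differences were then 3.03 for Muc4, 2.36 for Xdh, 1.74 for Muc1, 1.57 for Btn1a1, 1.06 for Mfge8, 0.84 for Muc15 and 0.65 for Plin2. All 6 muscle genes were lower in every 10-week pool than in any 5-week pool. Muscle signal and age therefore cannot be told apart here, with or without 10-week pool 1.

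The genes whose profiles over the 6 pools were nearest to those of Btn1a1, Xdh, Muc1 and Plin2 were found by the mean absolute difference of log2 signals centred on each gene's mean, among 12994 other genes. All such profiles share the same 6 arrays and mainly the step between the ages. Nearest to Btn1a1 were Abhd17c, at 0.07, and Tgfb2, a growth factor of the TGF-beta family, at 0.08, against a median of 0.82 over all genes. For Muc1 they were Klc3, a kinesin light chain, at 0.06, and Cmpk2, a mitochondrial nucleotide kinase, at 0.07. For Plin2 they were Pfkl, a phosphofructokinase of glycolysis, at 0.02, and Impdh1, an enzyme of guanine nucleotide synthesis, at 0.04, against a median of 0.38. Profiles near that of Xdh were less close, with Vmn1r44 at 0.27 and Cel at 0.33. Vmn1r44 was dim, with signals of 27.2 and 36.4 in 5-week pools 2 and 3, within the range of the Y-linked genes. Cel, the bile salt-dependent lipase secreted into milk, had signals of 16705.8, 14013.2 and 15274.4 at 10 weeks, against 4195.9, 2079.1 and 1786.1 at 5 weeks, with pool 1 the highest at 5 weeks as for Xdh.

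Genes beside the members on the chromosome, in the RefSeq table of GRCm38.p6, were examined after the other values had been seen. Thbs3, a thrombospondin gene next to Muc1, fell by 1.88 ± 0.21 (SE, adjusted p = 0.000261), and Trim46 on the other side rose by 1.05 ± 0.15 (SE, adjusted p = 0.000846). Abhd2, next to Mfge8, rose by 0.52 (adjusted p = 0.00593), and Hapln3 on its other side had 0.51 (adjusted p = 0.0611). Next to Muc4, Tnk2 rose by 0.46 and Muc20 by 1.504. The nearest genes on both sides of Plin2, Haus6 and Dennd4c, had log2 differences of 0.05 and -0.10 (adjusted p = 0.842 and 0.476). Abt1, next to Btn1a1, had 0.11 (adjusted p = 0.493), Ehd3, next to Xdh, had 0.38 (adjusted p = 0.133), and Tubb6, next to Cidea, fell by 1.40 ± 0.21 (SE).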

How the data were processed

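The authors' deposited files give a linear signal intensity for each probe set on each array, from 1-colour arrays hybridised with biotin-labelled total RNA, per the labels. After trimming 2% of probe sets at both ends, every array had a mean of 500.0 in the deposited values. The sources used here name no algorithm, detection call or scan date, and the number of arrays limits the precision. The files hold 45101 probe sets, of which the 64 control sets were dropped. The platform annotation gives a single gene symbol for 34945 of the others, more than 1 for 932 and no symbol for 9160, and 34741 of the first were found in a RefSeq table of GRCm38.p6.

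Signals were floored at 1 and transformed as log2(value + 32), a scale on which differences of dim genes are understated. A filter removed the dimmest 40% of probe sets by mean log2 signal and kept 27022. limma 3.58.1 in R 4.3.3 (lmFit, eBayes with a variance trend, 4 residual degrees of freedom, two-sided) was fitted on age. The Benjamini-Hochberg adjustment ran over 13002 genes, each represented by its brightest probe set (chosen again when a pool was left out), or over all probe sets where stated. The steps were tested on simulated data. Pool numbers follow accession order and pair nothing. Members, lists (droplet and globule lipid, butyrophilin family, other mucins, O-glycosylation, Mfge8 partners, Xdh relatives, and markers of epithelium, adipocytes, brown fat, macrophages, endothelium, muscle and the Y chromosome) and tests were chosen with earlier results of these data known. Every member is named, and from each list the largest rise, the largest fall and the brightest uncalled gene, with relatives of the members, the 2 genes nearest in profile to 4 of them and further list genes chosen after their values were seen. Figures used Python 3.11.15 and matplotlib 3.10.9.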

Additional observations from a re-analysis of the deposited data

How the results depend on the processing

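Under 10 alternatives (offset, filter, quantile or median normalization, variance model, array weights, averaged probe sets) each of the 8 genes kept its direction and its side of the threshold, with the weakest call for Xdh under robust eBayes (adjusted p = 0.0416). Averaging the probe sets of a gene gave 2.24 for Btn1a1 and 2.05 for Muc4, so that Muc4 no longer had the largest difference. It also moved Abhd5 to 0.74, Gas6 to -0.93, St6galnac2 to 2.07 and Galnt2 to -0.41. Centring on 7 epithelial genes left 4 of the 7 called members higher (0.37 for Mfge8 and 0.15 for Muc15, no longer called, -0.025 for Plin2 and -0.25 for Cidea), with 345 genes higher and 9207 lower, since that scaling subtracts the epithelial shift from every gene. The same scaling turned Btnl9 to -0.20, Cd36 to -0.47, Rab18 to -0.037, Gphn to -0.071 and Itgav to -0.66. Itgav, not called, was also -0.0014 after quantile normalization and -0.012 to 0.13 with 1 pool left out. Leaving out 1 pool at a time kept the calls of the 7 members and gave 7 to 8 members higher and 0 lower, 1533 to 1887 genes higher and 2023 to 2186 lower. The ranges of the log2 difference were then 1.54 to 1.78 for Btn1a1, 1.74 to 2.81 for Xdh, 0.97 to 1.22 for Mfge8, 1.68 to 1.89 for Muc1, 2.68 to 3.33 for Muc4, 0.79 to 1.03 for Muc15, 0.58 to 0.78 for Plin2 and 0.33 to 0.71 for Cidea, which was called without 10-week pool 2 (0.69) or 5-week pool 2 (0.71). The ratios between genes kept their sign with offsets of 1 and 100 and without any 1 pool, alternatives chosen after seeing the data. The difference for Cidea to Ucp1 was 1.12 without 10-week pool 1, and that for Muc1 to Muc20 was 0.01 without 5-week pool 3. No paired analysis was possible because the labels give no number that pairs pools. Signals near the background limit the size of the Muc4 difference.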
